A study of Rattus norvegicus with 12 samples.

Results

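The nitric oxide and cyclic GMP pathway was followed through 10 genes in endothelial cells (ECs) of the rat ductus arteriosus (DA) and of the aorta, before and after birth. The 10 members are the nitric oxide synthase Nos3, the soluble guanylate cyclase subunits Gucy1a1 and Gucy1b1, the phosphodiesterases Pde5a and Pde3a, the cyclic GMP-dependent kinase Prkg1, the natriuretic peptide receptors Npr1 and Npr3, and Ddah1 and Cav1, which act on the synthase. A member was found by its gene symbol among 26468 probe sets on Rat Gene 1.0 ST arrays, and where a gene had more than 1 probe set the one with the highest mean over the 12 arrays was used. All 10 members, of 14503 named genes, had a probe set, and 9 of them, of 11221 named genes, were bright enough to be tested.

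Wistar rats were used throughout, and no group carried a transgene or a drug treatment. The F group held fetuses at day 21 of gestation, and the N group held neonates taken 30 minutes after cesarean delivery. Pieces of the DA or of the descending aorta were pooled and digested with enzymes, and CD31+/CD45- cells were sorted from them, so that each group, aorta F, DA F, aorta N and DA N, had 3 arrays. An array carried RNA combined from many litters, so that p-values reflect how such pools varied, and the same litters may have given DA and aorta RNA. The number of arrays limits the precision.

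Nitric oxide made by the endothelial synthase binds soluble guanylate cyclase, a heterodimer of an alpha and a beta subunit, which then makes cyclic GMP. Natriuretic peptides raise cyclic GMP through a separate, membrane-bound cyclase. Cyclic GMP acts through its kinase and is removed by phosphodiesterases, and in the wall of the DA this pathway is known for its part in keeping the fetal vessel dilated. Soluble guanylate cyclase is best known from smooth muscle, where nitric oxide released by ECs is sensed.

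The promoters of Gucy1a1, Gucy1b1 and Pde5a are shown because these were the members that differed between the vessels over both stages. Each is the RefSeq sequence of the GRCr8 assembly from 250 bases before to 50 bases after the start of the gene, read 5′ to 3′ on the strand of the gene. Capitals mark matches to a GC box, with the letters GGGCGG, on either strand. Capitals also mark the CCAAT box, which is searched by these 5 letters on either strand. Gucy1a1 lies at chr2:169779574-169779873 and Gucy1b1 at chr2:169696938-169697237, both on the minus strand, and Pde5a lies at chr2:213543776-213544075 on the plus strand.
Gucy1a1: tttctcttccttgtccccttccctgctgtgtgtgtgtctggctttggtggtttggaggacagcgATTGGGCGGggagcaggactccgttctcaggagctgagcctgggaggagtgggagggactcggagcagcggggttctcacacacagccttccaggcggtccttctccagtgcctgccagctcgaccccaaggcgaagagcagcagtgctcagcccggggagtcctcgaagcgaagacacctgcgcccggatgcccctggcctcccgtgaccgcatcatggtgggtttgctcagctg
Gucy1b1: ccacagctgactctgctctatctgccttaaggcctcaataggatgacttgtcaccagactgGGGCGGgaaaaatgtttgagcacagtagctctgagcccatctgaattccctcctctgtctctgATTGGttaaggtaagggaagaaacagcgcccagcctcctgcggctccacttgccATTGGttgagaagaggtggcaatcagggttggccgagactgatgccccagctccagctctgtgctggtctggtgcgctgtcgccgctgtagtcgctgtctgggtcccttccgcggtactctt
Pde5a: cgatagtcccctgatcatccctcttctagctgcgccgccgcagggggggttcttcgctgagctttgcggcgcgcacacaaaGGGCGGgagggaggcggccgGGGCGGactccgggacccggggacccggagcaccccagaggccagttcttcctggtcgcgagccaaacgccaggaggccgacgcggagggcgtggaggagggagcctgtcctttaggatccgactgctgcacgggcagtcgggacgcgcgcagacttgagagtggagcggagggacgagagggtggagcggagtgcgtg
The Gucy1a1 window holds 1 GC box and, overlapping it, 1 CCAAT box on the opposite strand. The Gucy1b1 window holds 1 GC box and 2 CCAAT boxes on the opposite strand. The Pde5a window holds 2 GC boxes and none of the other motif. A TATA box, spelled TATAAA and searched on both strands as well, matched in none of the 3 windows. Of 33469 rat promoters of 300 bases, 33.1% held a GC box, 37.5% a CCAAT box and 14.2% a TATA box, so these matches are common letters and no more than a description. Gucy1a1 and Gucy1b1 sit in the same direction with 1 annotated gene, LOC120101147, between them, and 6 of the 10 members lie on chromosome 2.

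All deposited values were log2 signals. The array medians lay between 5.63 and 5.76, and testing was limited to probe sets whose mean reached 4.44, the mean of the lys spike, an external control RNA. In each of the 4 groups lys was highest on replicate 1 and lowest on replicate 3, from 3.41 to 6.17 over the 12 arrays. The sorted cells carried the endothelial markers Pecam1, between 11.90 and 12.28 on all arrays, and Cdh5, between 10.94 and 11.19, and neither passed the vessel test. Ptprc, which encodes CD45, had values between 2.82 and 4.10 and was below the mean of the lys spike in each group. The leukocyte markers Cd68 and Cd14 were measured at 7.57 to 8.48 and 5.71 to 6.98. Of the 13 endothelial markers measured, 2 were lower in the DA over both stages (Flt1 and Cldn5), and the log2 of their summed signal was 14.56 to 14.66 in the DA and 14.63 to 14.75 in the aorta. Of 10 smooth muscle markers, 5 were higher in the DA (Acta2, Actg2, Des, Myl9 and Tagln) and 1, Myocd, was lower, and the log2 of the summed signal was 11.80 to 12.19 in the DA against 11.23 to 11.49 in the aorta. Acta2 itself was between 10.89 and 11.36 in the DA and between 10.26 and 10.65 in the aorta. Of 6 pericyte markers 2 were higher in the DA (Cspg4 and Pdgfrb), with a summed log2 signal of 12.94 to 13.07 in the DA and 12.74 to 12.89 in the aorta. With replicate number as a block, 7 smooth muscle markers were higher and 1 lower, and 4 pericyte markers were higher, Kcnj8 and Rgs5 being added. Of all probe sets, 8.12% were called over both stages without the block and 17.8% with it, which holds beside each marker count here. Of 3 leukocyte markers tested 1 was lower in the DA, Cd14 (log2 fold change -0.57 ± 0.14, adjusted p = 0.0224), and with the block Cd68 as well, and the summed log2 signal of 6 such markers was 8.32 to 8.67 in the DA and 8.65 to 9.07 in the aorta. Of 4 cardiomyocyte markers tested 1 was lower, Tnnt2 (-0.70 ± 0.11, adjusted p = 0.00107, limma), and with the block Tnni3 as well, and the sum of 5 was 7.48 to 7.71 in the DA and 7.84 to 8.23 in the aorta. The mesothelial sum of 3 markers was 6.68 to 6.94 in the DA and 6.32 to 6.64 in the aorta, with Msln called higher. Fibroblast sums (12.66 to 13.07 in the DA, 12.78 to 13.004 in the aorta), platelet sums (9.19 to 9.66 and 9.25 to 9.56) and erythroid sums (7.46 to 9.90 and 8.45 to 9.02) overlapped. Of 6 fibroblast markers tested 1 was higher (Col1a2) and 1 lower (Col1a1), and 3 higher and 1 lower with the block, and Itgb3 was higher among 6 platelet markers and 0 of 3 erythroid markers passed in limma over both stages, and 0 before adjustment. By stage, the erythroid log2 fold changes were 0.12 to 0.27 in F and -1.17 to -0.11 in N. With the block Hbb was called lower in the DA in N, as were or were higher 7.27% of all probe sets.

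Among the members, the alpha subunit of soluble guanylate cyclase showed the widest separation between the vessels. On the log2 scale, Gucy1a1, the alpha subunit, was 7.31, 7.004 and 7.06 on the 3 aorta F arrays and 5.11, 5.10 and 5.40 on the 3 DA F arrays. In N the values were 7.29, 7.14 and 7.05 in the aorta and 5.83, 5.43 and 5.79 in the DA. All 6 DA arrays lay below all 6 aorta arrays. In DA ECs the signal was 3.79-fold lower in F (log2 fold change -1.92 ± 0.15, SE, adjusted p = 1.24e-05, limma with Benjamini-Hochberg over 18690 probe sets) and 2.79-fold lower in N (-1.48 ± 0.15, adjusted p = 0.000107). Over both stages it was 3.25-fold lower, with a 95% interval of the log2 fold change from -1.93 to -1.47 (adjusted p = 7.89e-07). The call over both stages held in each of the 22 alternative settings in which the gene was tested. One DA F array, replicate 1, had a Gucy1a1 signal below that array's own lys spike. Under the stricter filter, which asks for lys on every array, the gene was therefore not tested. That filter kept 11525 probe sets, as many as the study's methods kept after leaving out low signals by the same spike. Fewer cells of a type and less RNA per cell cannot be told apart in such pools. Of the marker sums given above, those of smooth muscle, pericytes and mesothelium were higher in the DA, and those of cardiomyocytes lower, with no overlap of the arrays, and the leukocyte and endothelial sums were lower with overlap. Their part in the result was not tested.

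Gucy1b1, the beta subunit without which the alpha subunit forms no active enzyme, was lower in DA ECs as well, by less. The log2 signals were 5.66, 5.64 and 5.66 in aorta F, 5.05, 5.08 and 5.37 in DA F, 6.10, 5.67 and 5.86 in aorta N and 5.23, 5.18 and 5.40 in DA N. No DA array reached the lowest aorta array. On DA F replicate 1 and DA N replicate 1 the Gucy1b1 signal was below the lys spike of the array, and under the stricter filter the gene was not tested. Its log2 fold change was -0.61 ± 0.14 in N (adjusted p = 0.0297) and -0.55 ± 0.10 over both stages (1.46-fold lower, adjusted p = 0.00297, limma). In F it was -0.49 ± 0.14 and did not pass (adjusted p = 0.0774), whereas it did under a block for replicate number (adjusted p = 0.0168). The call in N was lost without aorta F replicate 2, aorta N replicate 1 or 3, or DA N replicate 1 or 2 (adjusted p up to 0.158), and the call over both stages held in each of the 12 fits without 1 array. Of all 22 alternative settings, the call over both stages held in 21 (adjusted p up to 0.118, limma).

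The log2 signals of the 2 subunits were shifted by different amounts. The per-array log2 difference of Gucy1a1 minus Gucy1b1 was 1.37 to 1.65 in aorta F, 0.03 to 0.06 in DA F, 1.19 to 1.48 in aorta N and 0.25 to 0.60 in DA N. The level of one probe set cannot be set against that of another, so only the change of this difference between the vessels is read. It was lower in the DA (difference -1.15, two-sided exact permutation test within stage, p = 0.005, the smallest of the 400 arrangements, 6 arrays per vessel). Without any 1 array it ranged from -1.20 to -1.11. In DA F the mean log2 signals were 5.20 for Gucy1a1 and 5.16 for Gucy1b1, both below every array median. A log2 shift towards such low signals can be compressed, so whether the subunits were regulated differently was not tested.

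**Figure D1:**
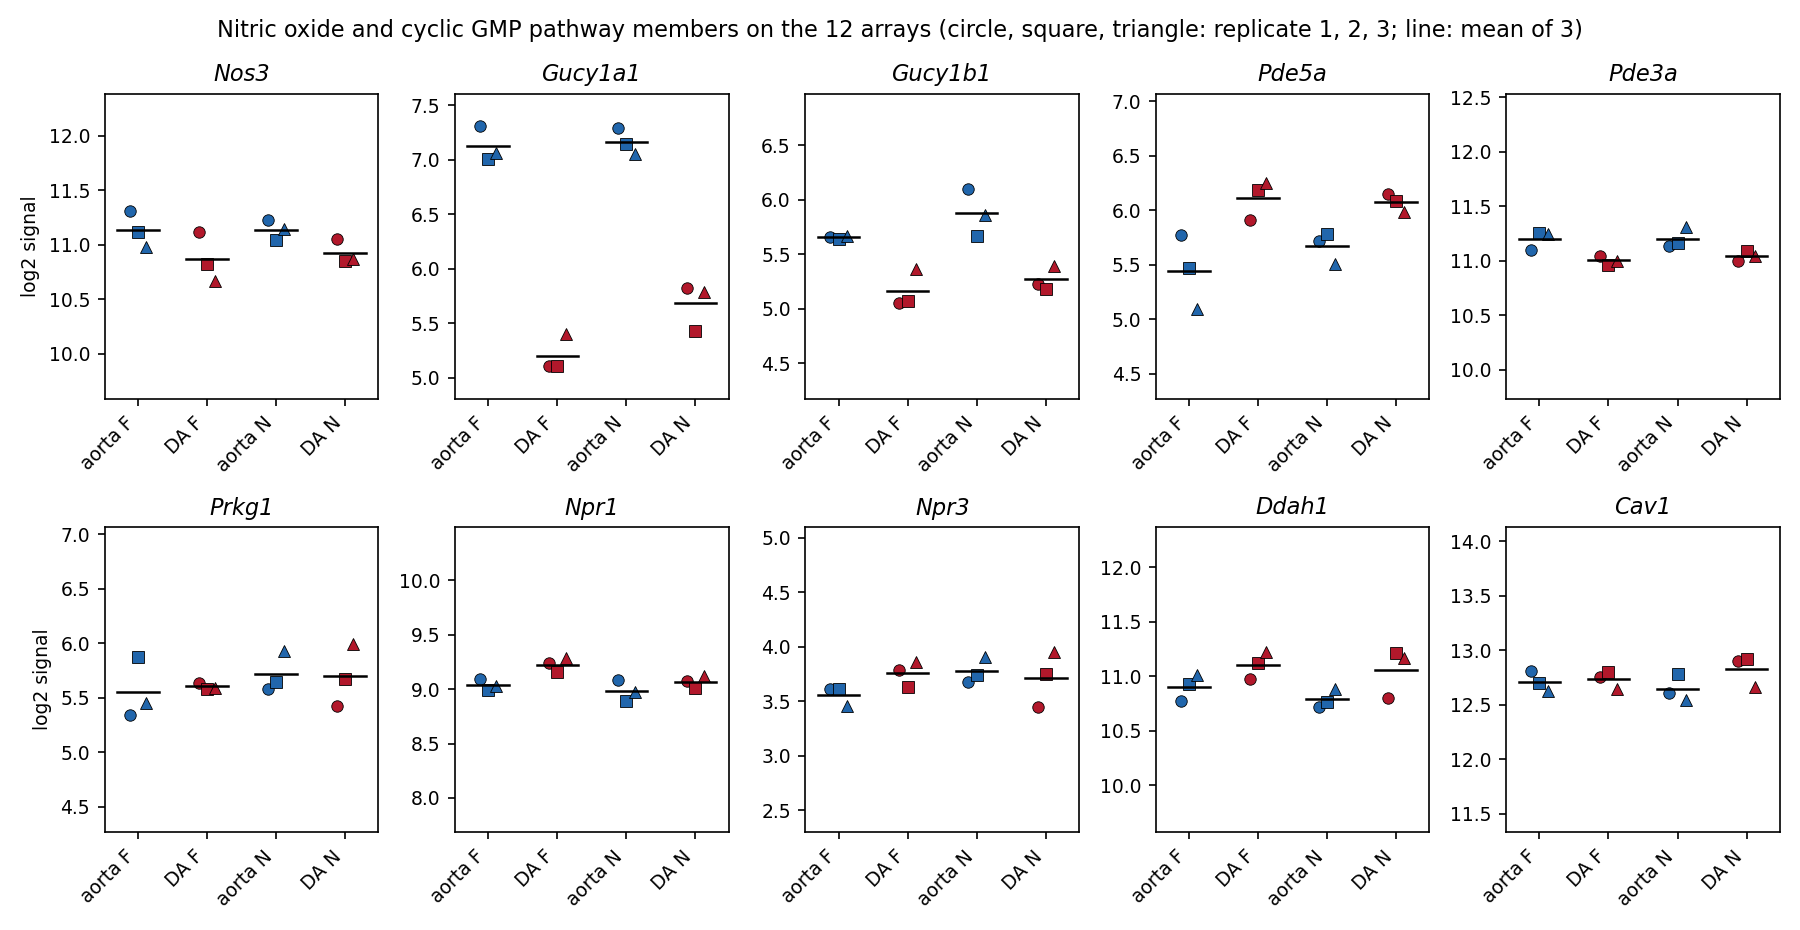
Log2 signal (y axis, each panel spanning the same width) of the 10 members on the 12 arrays, by group (x axis: aorta in blue, DA in red, F and N). Circles, squares and triangles are replicates 1, 2 and 3, and lines are means of 3. The Gucy1a1 panel shows DA arrays between 5.10 and 5.83 and aorta arrays between 7.004 and 7.31.

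Of the phosphodiesterases, Pde5a, which is specific for cyclic GMP, was the member higher in DA ECs. Its log2 signals were 5.77, 5.47 and 5.10 in aorta F and 5.91, 6.18 and 6.25 in DA F, and 5.72, 5.79 and 5.505 in aorta N and 6.15, 6.09 and 5.99 in DA N. Each DA array was above each aorta array, although DA F replicate 1, at 5.91, was close to the highest aorta value of 5.79. That array's Pde5a signal was below its lys spike, so the stricter filter left Pde5a untested too. DA ECs differed by 0.67 ± 0.17 on the log2 scale in F (1.59-fold higher, adjusted p = 0.0466), by 0.40 ± 0.17 in N (adjusted p = 0.364) and by 0.54 ± 0.12 over both stages (1.45-fold higher, 95% interval 0.28 to 0.79, adjusted p = 0.0127, limma). The call in F was lost in 10 of 12 fits without 1 array, that is without any array other than aorta F replicate 1 or DA F replicate 1, with adjusted p up to 0.179. Over both stages the call held in 12 of 12 such fits (adjusted p 0.00375 to 0.0373). It was lost when the arrays of replicates 1 and 3 alone, or of 1 and 2 alone, were fitted (adjusted p = 0.297 and 0.121).

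Pde3a, which degrades cyclic AMP and is inhibited by cyclic GMP, had much closer groups. Its log2 signals were 11.10, 11.26 and 11.24 in aorta F, 11.05, 10.96 and 11.003 in DA F, 11.13, 11.16 and 11.31 in aorta N and 11.002, 11.09 and 11.04 in DA N. The DA arrays all lay below the aorta arrays. The log2 fold change over both stages was -0.18 ± 0.07 and did not pass over all probe sets (adjusted p = 0.209, limma). The exact permutation test of this single gene within stage gave p = 0.005, 1 of 10 such tests, not adjusted.

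Nos3, the endothelial nitric oxide synthase, had a small vessel difference. The log2 signals were 11.31, 11.12 and 10.98 in aorta F, 11.12, 10.82 and 10.67 in DA F, 11.23, 11.04 and 11.14 in aorta N and 11.05, 10.85 and 10.87 in DA N. The groups overlapped, and in each of the 6 pairs of arrays with the same stage and replicate number the DA array was lower, with differences of -0.31 to -0.18. The log2 fold change over both stages was -0.24 ± 0.10 (1.18-fold lower, 95% interval -0.46 to -0.02), with an adjusted p of 0.21 in limma without a block and of 0.0268 once replicate number was a block.

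Ddah1, which breaks down asymmetric dimethylarginine, an inhibitor of the synthase, went the other way by a like amount. Its log2 signals were 10.78, 10.93 and 11.01 in aorta F, 10.98, 11.12 and 11.22 in DA F, 10.72, 10.77 and 10.89 in aorta N and 10.81, 11.21 and 11.17 in DA N. The groups overlapped, and the DA array was the higher in 6 of 6 pairs, by 0.09 to 0.44. Over both stages the log2 fold change was 0.24 ± 0.10 (1.18-fold higher, 95% interval 0.03 to 0.44), with adjusted p = 0.197 without and 0.0253 with the replicate block (limma). The exact permutation tests, which do not pair arrays, gave p = 0.03 for Nos3 and 0.025 for Ddah1, not adjusted.

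Cav1, the caveolar coat protein that holds the synthase inactive, had log2 signals of 12.81, 12.70 and 12.63 in aorta F, 12.76, 12.80 and 12.65 in DA F, 12.61, 12.78 and 12.55 in aorta N and 12.90, 12.92 and 12.66 in DA N. The vessels overlapped at both stages. The log2 fold change over both stages was 0.10 ± 0.08, with a 95% interval from -0.08 to 0.28 (adjusted p = 0.642, limma).

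Npr1, the membrane-bound guanylate cyclase that binds atrial natriuretic peptide, had log2 signals of 9.09, 8.99 and 9.02 in aorta F, 9.24, 9.15 and 9.28 in DA F, 9.08, 8.89 and 8.97 in aorta N and 9.08, 9.01 and 9.12 in DA N. The F groups did not overlap and the N groups did. On the log2 scale the DA differed by 0.19 ± 0.10 in F, 0.09 ± 0.10 in N and 0.14 ± 0.07 when the stages were combined (95% interval -0.02 to 0.30, adjusted p = 0.371, limma). The exact permutation test of Npr1 within stage gave p = 0.02, not adjusted, and 0.01 to 0.04 in its 14 alternatives. Npr3, the receptor that clears natriuretic peptides and has no cyclase, was between 3.45 and 3.95 on the 12 arrays, below its array's lys spike on 9 of them, and was not tested.

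On its brighter probe set Prkg1, which encodes the main cyclic GMP-dependent kinase of vessels, did not separate the groups. Its brighter probe set was 5.34, 5.87 and 5.45 in aorta F, 5.64, 5.58 and 5.59 in DA F, 5.58, 5.65 and 5.93 in aorta N and 5.43, 5.67 and 5.995 in DA N. The log2 fold change over both stages was 0.02 ± 0.12, and the 95% interval, -0.25 to 0.28, contains no 2-fold difference of this signal. The signal was below the lys spike of the array on 2 of the 12 arrays, and a shift at such low signals can be compressed. The second Prkg1 probe set, at 3.95 to 4.49, was below the lys spike of its array on 6 of the 12 arrays. Its F groups did not overlap, at 3.95 to 4.33 in the DA and 4.37 to 4.49 in the aorta, as for 18.6% of all probe sets. Its N groups overlapped.

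In counts, 2 of the 9 members tested passed in F (Gucy1a1 lower and Pde5a higher), against 3.77% of all probe sets (2.28% lower and 1.49% higher), and 2 passed in N (Gucy1a1 and Gucy1b1, both lower), against 3.14% (1.87% lower and 1.26% higher). Over both stages 3 passed, 2 lower and 1 higher, against 8.12% of all probe sets (4.93% lower and 3.19% higher). With the replicate block 5 of 9 passed over both stages, Nos3 and Ddah1 being added, against 17.8% of all probe sets. The groups did not overlap for 5 members in F, where 18.6% of all probe sets did so, for 4 in N (15.3%) and for 4 over both stages (6.98%). The median log2 fold change of the 9 members over both stages was 0.02, and that of all probe sets tested was -0.0004. The other 6 members' 95% intervals over both stages all lay within -0.46 and 0.44.

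**Figure D2:**
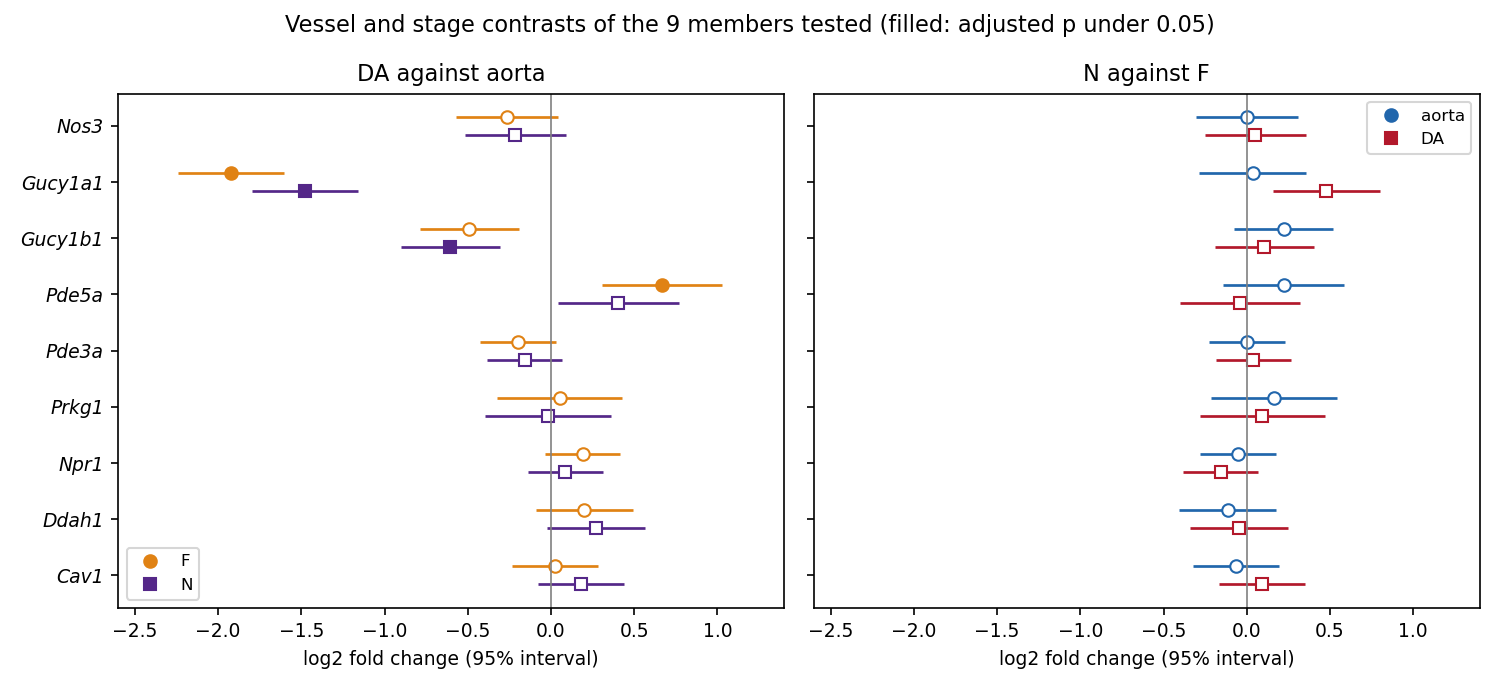
Log2 fold changes (x axis) with 95% intervals of the 9 members tested (y axis). The left panel gives DA against aorta in F and in N, and the right panel N against F in the aorta and in the DA, with filled symbols for an adjusted p under 0.05. Gucy1a1 stands at -1.92 and -1.48 in the left panel, and no symbol is filled in the right panel.

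Between F and N no member passed in either vessel, where limma called 0.00535% of all probe sets for the DA and 0% for the aorta. Before adjustment, p under 0.05 was reached by 1 member for the DA, Gucy1a1 (2.01% of all probe sets), and by 0 for the aorta (1.38%), and the t-test named in the study's methods gave 2 in the DA (Gucy1a1 and Npr1) before adjustment, where 2.27% of all probe sets passed, and 0 after it. In the DA the F and N groups did not overlap for 5.03% of all probe sets. Among the members this held for Npr1, at 9.15 to 9.28 in F and 9.01 to 9.12 in N. It also held for Gucy1a1, at 5.11, 5.10 and 5.40 in F and 5.83, 5.43 and 5.79 in N. The log2 fold change was 0.48 ± 0.15 (adjusted p = 1 in limma, 0.31 with the replicate block). In the aorta the same probe set moved by 0.04 ± 0.15. The interaction of vessel and stage was 0.44 ± 0.21 on the log2 scale for Gucy1a1 and did not pass (adjusted p = 1, unadjusted p = 0.0538, limma). For the other 8 members the log2 fold change between F and N was between -0.16 and 0.11 in the DA and between -0.12 and 0.22 in the aorta. This interaction passed for 0 members and for 0% of all probe sets, and before adjustment for 0 members and 0.931% of all probe sets.

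The vessels were also set side by side in pairs of arrays with the same stage and replicate number. For Gucy1a1, Gucy1b1, Pde5a and Pde3a the vessels did not overlap, so 6 of 6 pairs follows from that and adds no support. Gucy1a1 was lower in the DA in 6 of 6 pairs, with DA minus aorta differences of -2.20 to -1.26 on the log2 scale, and Gucy1b1 in 6 of 6, with differences of -0.87 to -0.30. Pde5a was higher in 6 of 6 pairs, by 0.14 to 1.15, with the smallest difference in the pair of replicate 1 in F. Pde3a was lower in 6 of 6, with differences of -0.30 to -0.06. Npr1, Npr3 and Cav1 were higher in the DA in 5 of 6 pairs and Prkg1 in 4 of 6.

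**Figure D3:**
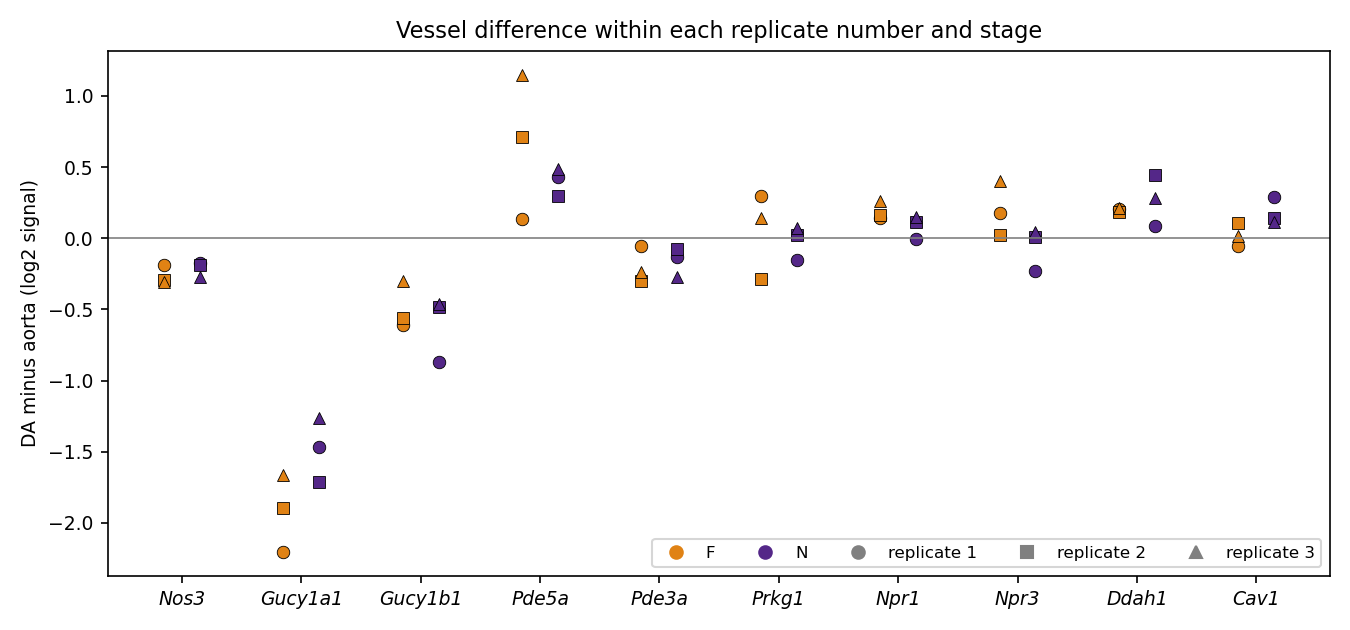
DA minus aorta log2 signal (y axis) of the 10 members (x axis) within each replicate number and stage, with F in orange, N in purple and replicates 1, 2 and 3 as circles, squares and triangles. All 6 points of Gucy1a1 lie between -2.20 and -1.26, and the 6 points of Prkg1 lie on both sides of 0.

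The wider pathway was read from 65 genes that include the members, of which 64 had a probe set and 55 were tested. Over both stages 13 of 55 passed, 5 higher and 8 lower in the DA, with a median log2 fold change of -0.06 against -0.0004 for all probe sets and 8.12% of all probe sets called. In F 8 passed, against 3.77% of all probe sets, and in N 7, against 3.14%. With the replicate block 24 passed over both stages, all 13 among them, against 17.8% of all probe sets, 14 in F against 10.4% and 12 in N against 7.27%.

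Among 23 genes of nitric oxide synthesis and its control, 3 were higher in the DA and 2 lower over both stages (21.7%, against 8.12% of all probe sets). Nos1, the neuronal synthase, was higher in the DA by 0.79 ± 0.12 (log2 fold change, adjusted p = 0.000806), with signals of 6.23 to 6.63 in DA F against 5.59 to 5.70 in aorta F and of 6.27 to 6.91 in DA N against 5.77 to 5.98 in aorta N. Ass1, which recycles citrulline towards arginine, was higher by 0.57 ± 0.11 (adjusted p = 0.00478), and its signal was 9.11 to 9.54 in the DA and 8.60 to 9.05 in the aorta. Spr, the last enzyme in the synthesis of tetrahydrobiopterin, the cofactor of the synthases, was higher by 0.29 ± 0.07 (adjusted p = 0.0229). Gch1, the first and rate-limiting enzyme of the same synthesis, was lower by a log2 fold change of -0.79 ± 0.13 (adjusted p = 0.00214), with signals of 5.17 to 5.76 in DA F against 6.28 to 6.51 in aorta F. On 1 of the 12 arrays the Gch1 signal was below the lys spike of the array. Slc7a1, a carrier of arginine into the cell, was lower at -0.58 ± 0.10 (adjusted p = 0.00229). The 2 genes of tetrahydrobiopterin synthesis that passed thus differed in opposite directions. With the replicate block 12 of the 23 passed, 6 higher and 6 lower, against 17.8% of all probe sets. Added as higher were Ddah1, Ddah2, which also breaks down asymmetric dimethylarginine (0.41 ± 0.08, adjusted p = 0.00398 with the block, limma), and Prmt1, which methylates arginine residues. Added as lower were Nos3, Akt1, a kinase that phosphorylates the synthase, and Cav2 and Cavin1, components of caveolae, with log2 fold changes of -0.28 to -0.24.

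Of 11 cyclases, natriuretic peptides and receptors, 4 were lower in the DA and 0 higher (36.4%, against 8.12% of all probe sets). Beside Gucy1a1 and Gucy1b1 these were Gucy1a2, the other alpha subunit, at -0.53 ± 0.11 (adjusted p = 0.0117), and Npr2, the cyclase receptor of C-type natriuretic peptide, at -0.78 ± 0.11 (adjusted p = 0.000445). Npr2 signals were 7.90 to 7.9997 in DA F against 8.43 to 8.86 in aorta F, and 7.77 to 8.26 in DA N against 8.72 to 8.94 in aorta N. The subunits that passed, 2 alpha and 1 beta, were thus lower in DA ECs. Gucy1b2, the other beta subunit tested, did not pass. Its mean log2 signal was 4.79 in aorta F, 4.88 in DA F, 4.88 in aorta N and 4.74 in DA N. Gucy1a2 and Gucy1b2 were each below the lys spike of the array on 3 of the 12 arrays. With the replicate block 5 of the 11 passed, all lower, against 17.8% of all probe sets. Nppc, the gene of C-type natriuretic peptide, was added (-0.27 ± 0.08, adjusted p = 0.0425, limma).

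Of 10 genes listed with the phosphodiesterases, 2 were higher and 1 lower (30%, against 8.12% of all probe sets). Pde1c, which is activated by calcium and calmodulin, was higher by 0.43 ± 0.09 (adjusted p = 0.00714), at 5.27 to 5.40 in DA F against 4.65 to 4.83 in aorta F, while in N the ranges of the vessels overlapped. On 3 of the 12 arrays the Pde1c signal was below the lys spike of the array. Pde10a, which degrades both cyclic nucleotides, was lower at -0.62 ± 0.09 (adjusted p = 0.000797). With the replicate block Pde3b was lower as well (-0.29 ± 0.08, adjusted p = 0.0225, limma). This made 2 higher and 2 lower, against 17.8% of all probe sets. Of 11 kinases, targets and exporters, 1 was lower and 0 higher (9.09%, near the 8.12% of all probe sets). This was Abcc4, an exporter of cyclic nucleotides, at -1.19 ± 0.11 (2.29-fold lower, adjusted p = 1.96e-05), with signals of 7.49 to 8.10 in the DA and of 8.83 to 9.03 in the aorta. Of the 3 Abcc4 probe sets the one ranked second by brightness stood at -0.37 ± 0.12 and did not pass (adjusted p = 0.0993). With the replicate block 3 of the 11 passed, 1 higher and 2 lower, against 17.8% of all probe sets. Added were Kcnmb1, a subunit of a calcium-activated potassium channel (0.35 ± 0.08), and Itpr1, a calcium release channel (-0.24 ± 0.06). Kcnmb1 was below the lys spike of the array on 6 of the 12 arrays.

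**Figure D4:**
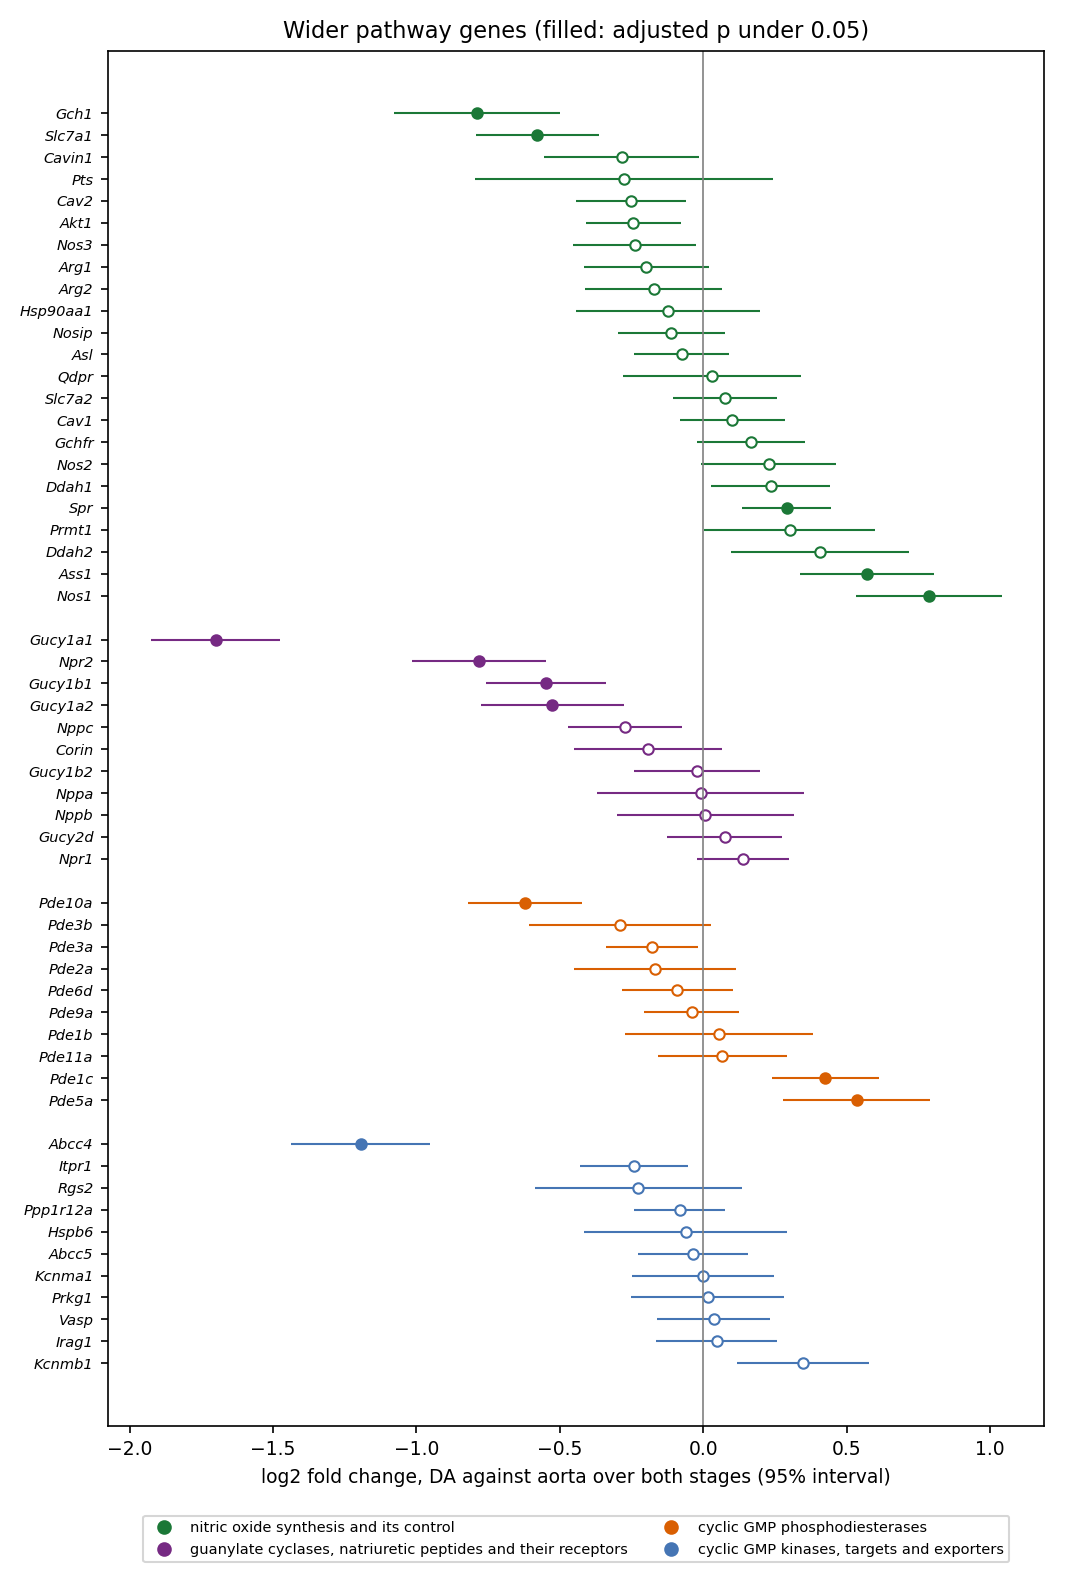
Log2 fold change of DA against aorta over both stages (x axis) with 95% intervals for the 55 wider pathway genes tested (y axis), grouped and coloured by role, with filled points for an adjusted p under 0.05. The cyclase group holds 4 filled points, all left of 0, with Gucy1a1 at -1.70.

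The probe sets whose pattern over the 12 arrays was most like that of each called member were taken by Pearson r among tested probe sets with 1 gene symbol. The points share arrays and the vessel difference, so r is a description only. For Gucy1a1 these were Sytl2 (r = 0.986), Sdc2 (0.985) and Dkk2 (0.984). For Gucy1b1 they were Pde10a (0.940), Ptafr (0.938) and Pdk4 (0.938). For Pde5a they were Add3 (0.942), Trpc5 (0.935) and Rce1 (0.934). Pde10a, in the wider list above, was thus the nearest to Gucy1b1. Among the members themselves Gucy1a1 and Gucy1b1 had r = 0.913, and Gucy1a1 and Pde5a had r = -0.756, over 12 arrays.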

How the data were processed

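ECs sorted from the DA and aorta in F and N (3 arrays per group) were hybridized to Rat Gene 1.0 ST arrays. The deposited log2 signals were summarised and normalized by the authors, by a method not given in the sources used here, and were not normalized further. Symbols came from the platform table: of 26468 probe sets 15307 had 1 symbol, 323 several and 10838 none. Probe sets with a mean at or above that of the lys spike, 18690 without lys itself, entered a limma 3.58.1 fit (R 4.3.3), 1 mean per group, with calls at an adjusted p under 0.05 (Benjamini-Hochberg). Single genes were tested by exact permutation within stage in Python 3.11.15. The fit was tested on simulated data.

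The members and lists were chosen with earlier results of these data known. Named are all members, wider pathway genes called over both stages, the 3 probe sets most like each called member, and markers. Listed genes without a named probe set, among them Vwf, Itga2b and Upk3b, were not analysed here. Probe sets with several symbols named no gene.

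Deviations from group means correlated across genes in arrays of the same number at 0.539 to 0.82 (replicate 1), 0.103 to 0.301 (replicate 2) and 0.393 to 0.735 (replicate 3), and at -0.738 to 0.368 otherwise, so the number was also fitted as a block. Their meaning is not stated. Alternatives were other filters, scalings, moderation, array weights, left-out arrays and the methods' t-test.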

Additional observations from a re-analysis of the deposited data

How the results depend on the processing

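The vessel calls of Gucy1a1 over both stages and in F held wherever it was tested, and the other counts moved. The replicate block also moved the counts of the gene and marker lists, as printed beside them, and among the members it changed the calls of Gucy1b1 in F and of Nos3 and Ddah1 over both stages and no other. With it 5 members passed over both stages and 14, 12 and 24 wider genes in F, N and over both stages. The stricter filter, which kept as many probe sets as the study's methods, left Gucy1a1, Gucy1b1, Pde5a and Prkg1 untested. Of the 5 members it tested 0 passed in F, N or over both stages (5.87%, 4.55% and 11.6% of all probe sets), with 8 wider genes over both stages. No filter, a common median and robust moderation each left 1 member in F (2.35%, 3.63% and 4.03% of all probe sets). Fitting only the arrays compared left 1 in F and 1 in N (3.26% and 1.7%), with 3 wider genes in N. Array weights gave 4 members in F, 1 in N and 1 between stages in the aorta, with 17 wider genes in F and 12 between stages in the aorta (13.2%, 2.95% and 13.0% of all probe sets in F, N and between stages in the aorta); their estimation stopped before convergence, so weights gene by gene were added after seeing the data and gave 5 members over both stages, with 14 wider genes in N and 20 over both stages (11.1% and 15.9% of all probe sets). The methods' t-test gave 1 member in F and 0 in N after adjustment (1 and 0 wider genes, 0.358% and 0.235% of all probe sets). Unadjusted it gave 5 members in F and 2 between stages in the DA, with 17 wider genes in F, 15 in N, 5 between stages in the aorta and 4 in the DA (11.9%, 9.91%, 2.04% and 2.27% of all probe sets). With it Gucy1a1 in N had an adjusted p of 0.0833. Fits without the 4 arrays of 1 replicate number were also added after seeing the data. Replicates 1 and 3 gave 1 member in each vessel comparison (1, 1 and 4 wider genes, 0.583%, 0.342% and 1.94% of all probe sets). Replicates 1 and 2 gave 1 member in F and in N (4, 4 and 8 wider genes, 1.95%, 1.79% and 4.78%). Replicates 2 and 3 gave 1 member in N (5 wider genes in F and 3 in N, 2.66% and 1.99%). Without 1 array the members called ranged from 1 to 2 in F and in N and were 3 over both stages, and the wider genes from 4 to 7 in F, 4 to 8 in N and 12 to 14 over both stages. Of all probe sets such fits called 2.62% to 4.1% in F, 1.7% to 3.12% in N and 6% to 8.07% over both stages. The wider count fell in F to 5 without aorta F replicate 2 or 3 and to 4 without DA F replicate 2, and in N to 4 without any 1 aorta N array.

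By permutation Nos3 was -0.25 (p = 0.05) with a common median and -0.30 to -0.19 without 1 array (p up to 0.075), and Ddah1 was 0.20 (p = 0.115) after quantile normalization and 0.20 to 0.30 without 1 array (p up to 0.06). Of 1326 values of 54 member log2 fold changes, 74 changed sign, none with an adjusted p below 0.31, and the largest main value among them was 0.16 in size. These were as follows. For Nos3, N against F in the DA (main 0.052) came to -0.021 with replicates 1 and 2 and -0.048 to 0.18 without 1 array. Its value for N against F in the aorta (main 0.0013) came to -0.024 with a common median, -0.061 with array weights, -0.021 with gene-by-gene weights, -0.079 with replicates 1 and 2 and -0.076 to 0.087 without 1 array. Its value for the vessel-by-stage term (main 0.051) came to -0.020 with quantile normalization and -0.050 to 0.17 without 1 array. For Gucy1a1, N against F in the aorta (main 0.035) came to -0.017 with replicates 1 and 3 and -0.030 to 0.13 without 1 array. For Gucy1b1, the vessel-by-stage term (main -0.12) came to 0.11 with array weights. For Pde5a, N against F in the DA (main -0.040) came to 0.070 with replicates 1 and 2 and -0.14 to 0.026 without 1 array. For Pde3a, N against F in the DA (main 0.041) came to -0.0038 with replicates 1 and 3. Its value for N against F in the aorta (main 0.0008) came to -0.024 with a common median, -0.082 with array weights, -0.065 with gene-by-gene weights, -0.014 with replicates 2 and 3, -0.034 with replicates 1 and 2 and -0.054 to 0.035 without 1 array. Its value for the vessel-by-stage term (main 0.040) came to -0.011 with quantile normalization and -0.053 with replicates 1 and 3. For Prkg1, DA against aorta in F (main 0.051) came to -0.20 with array weights, -0.12 with gene-by-gene weights, -0.073 with replicates 2 and 3 and -0.056 to 0.21 without 1 array. Its value for DA against aorta in N (main -0.019) came to 0.079 with array weights, 0.015 with gene-by-gene weights, 0.047 with replicates 2 and 3 and -0.17 to 0.12 without 1 array. Its value for both stages together (main 0.016) came to -0.060 with array weights, -0.051 with gene-by-gene weights, -0.013 with replicates 2 and 3, -0.029 with replicates 1 and 2 and -0.059 to 0.095 without 1 array. Its value for N against F in the DA (main 0.095) came to -0.062 with replicates 1 and 2 and -0.054 to 0.23 without 1 array. Its value for N against F in the aorta (main 0.16) came to -0.14 with array weights and -0.049 with gene-by-gene weights. Its value for the vessel-by-stage term (main -0.070) came to 0.28 with array weights, 0.13 with gene-by-gene weights, 0.12 with replicates 2 and 3 and -0.23 to 0.066 without 1 array. For Ddah1, N against F in the DA (main -0.044) came to 0.071 with gene-by-gene weights, 0.020 with replicates 2 and 3 and -0.12 to 0.085 without 1 array. Its value for the vessel-by-stage term (main 0.071) came to -0.022 with replicates 1 and 3 and -0.0037 to 0.20 without 1 array. For Cav1, DA against aorta in F (main 0.023) came to -0.045 with quantile normalization, -0.018 with replicates 1 and 3 and -0.018 to 0.071 without 1 array. Its value for N against F in the aorta (main -0.066) came to 0.065 with array weights and 0.029 with gene-by-gene weights. Its value for the vessel-by-stage term (main 0.16) came to -0.038 with array weights.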
